A study of Homo sapiens with 6 samples.

Results

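The WT H3K4me3 list of U2OS cells, a human osteosarcoma line, held 828 regions of at least 3500 bp among its 17101 regions on chromosomes 1 to 22 and X. These 828 broad domains, selected on their WT width alone, made up 4.84% of the regions and 13.9% of the bases in the list, and their genes, their H3K4me3 in a second cell line and the MMP-2 found in them are described here. Trimethylation of lysine 4 on the N-terminal tail of histone H3 marks active promoters, where it usually spans a few nucleosomes. At a small set of promoters the mark spreads over several kilobases, and such broad domains are known for covering cell identity genes and highly transcribed genes. MMP-2 is a matrix metalloproteinase that also enters the nucleus, where it clips the H3 N-terminal tail (H3NT proteolysis), and with the tail it removes the residue that carries H3K4me3.

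All cells were U2OS grown 2 days beyond confluence and were examined by native ChIP-Seq (nChIP-Seq), in which nucleosomes released by nuclease are immunoprecipitated without crosslinking. The ProMMP2-3xHA group is a stable line that makes tagged MMP-2 at all times, in its pro-form and with 3xHA at the C-terminus, beside the MMP-2 of the cells themselves, and the WT group carries no tagged protein. Lists were held for 5 of the 6 samples, namely 3 HA replicates of ProMMP2-3xHA cells and 1 H3K4me3 library from each line, together with 1 merged HA list, while the HA sample of WT cells was not analysed here. The study describes the HA replicates as separate biological experiments, which the labels do not state.

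With 1 H3K4me3 library for each line, differences in H3K4me3 between the lines have no replicate check and cannot be told apart from differences between the libraries. A merged HA peak was present in 36.6% of all WT H3K4me3 regions. A peak of HA replicate 1, 2 and 3 was present in 26.7%, 36.6% and 37.1% of them, and a peak of every replicate in 20.8%. The HA lists held 6391, 9176 and 8906 peaks, and the median number of HA fragments at the summits inside the domains was 54, 50 and 46. The H3K4me3 lists give no read counts, so the depth behind each H3K4me3 region is unknown.

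The label of the cells was compared with H3K4me3 at marker genes. WT H3K4me3 covered the TSSs of 13 of 16 mesenchymal markers, 3 of 8 epithelial, 2 of 8 blood, 1 of 6 neural and 0 of 4 hepatocyte markers. Over all 20090 protein coding genes the share was 60.3%. A TSS was here the 5′ end of the gene or the start of its canonical transcript. KRT8 and KRT18 were counted on the same region, which held the canonical TSS of KRT18 but not that of KRT8. EPCAM was counted by its 5′ end, with its canonical TSS outside the region. The domains held 6 of the mesenchymal markers (SNAI2, VIM, FN1, COL5A1, CDH2 and CDH11) and none of the others, against 4.58% of all protein coding genes. TWIST1, COL1A2 and ALPL, which are mesenchymal and osteoblast genes, had no WT H3K4me3 region at the TSS.

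To show what kind of DNA lay under HA inside a domain, windows of nucleosome length were read from the plus strand of GRCh37 at the highest HA summit of replicate 2 and at the middle of the longest stretch of the same domain without an HA peak in any list. CpG dinucleotides are in capitals. The first pair is from the IRS1 domain at chr2:227656166-227656312 (HA summit, intronic) and chr2:227658404-227658550 (no HA, intronic). The next, shown at its HA summit alone, is from the histone gene domain with H4C9, H2BC12 and H2AC12 at chr6:27114965-27115111 (HA summit, exonic). The other pair is from the histone gene domain with H2BC21, H2AC20 and H2AC21 at chr1:149858542-149858688 (HA summit, exonic) and chr1:149855823-149855969 (no HA, outside genes). The last is from the BCL11A domain, the widest with no HA peak, at chr2:60779950-60780096 (intronic).
IRS1, HA summit: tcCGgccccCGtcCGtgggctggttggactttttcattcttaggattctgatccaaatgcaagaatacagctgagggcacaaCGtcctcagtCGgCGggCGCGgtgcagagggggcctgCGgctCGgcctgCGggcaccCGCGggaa
IRS1, no HA: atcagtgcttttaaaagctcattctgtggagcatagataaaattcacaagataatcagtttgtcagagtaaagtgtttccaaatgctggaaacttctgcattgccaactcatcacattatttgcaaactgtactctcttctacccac
H4C9 histone genes, HA summit: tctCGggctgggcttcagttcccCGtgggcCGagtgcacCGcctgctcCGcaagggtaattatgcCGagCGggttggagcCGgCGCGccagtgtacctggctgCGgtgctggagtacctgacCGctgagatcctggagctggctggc
H2BC21 histone genes, HA summit: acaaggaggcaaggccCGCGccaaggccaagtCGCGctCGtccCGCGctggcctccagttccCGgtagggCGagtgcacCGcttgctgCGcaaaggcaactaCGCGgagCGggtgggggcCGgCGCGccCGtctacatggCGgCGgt
H2BC21 histone genes, no HA: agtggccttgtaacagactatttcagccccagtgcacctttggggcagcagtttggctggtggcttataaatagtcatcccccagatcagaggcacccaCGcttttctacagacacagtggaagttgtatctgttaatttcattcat
BCL11A, no HA: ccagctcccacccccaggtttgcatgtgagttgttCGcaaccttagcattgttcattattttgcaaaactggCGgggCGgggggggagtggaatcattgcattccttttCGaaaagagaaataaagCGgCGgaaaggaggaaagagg
The HA summit windows held 13, 12 and 20 CpG dinucleotides at IRS1, the H4C9 histone genes and the H2BC21 histone genes. The windows without HA held 0 at IRS1 and 1 at the H2BC21 histone genes. The BCL11A window held 6. The histone genes belong to families of near-identical copies, so reads there could be divided between copies by the alignment.

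The same contrast held over the domains as a set. Among the 589 domains with at least 150 bp both under and outside merged HA peaks, median GC content was 65.4% under HA and 51.2% in the remainder, and GC content was higher under HA in 518 of them (87.9%). The observed over expected CpG ratio had a median of 0.816 under HA and 0.590 in the remainder. Promoter CpG islands and HA peaks both lie near TSSs, and how much of the contrast comes from position was not tested.

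Domain widths ran from 3501 to 10402 bp, with quartiles of 3815, 4236 and 5002 bp. Of the 828 domains, 636 held the TSS of a protein coding gene, taken as the 5′ end of the gene. A single TSS was present in 482 and several in 154. With the TSS of the canonical transcript, 715 domains held one. A further 18 domains had a coding TSS within 1000 bp, 67 held the TSS of another gene, 89 lay inside a protein coding gene, 8 inside a long noncoding RNA gene and 10 outside genes. The domains held 0.212 coding TSSs per kb, against 0.394 in the 4036 WT regions of 2000 to under 3500 bp, which serve as the comparison regions below. Counted by region the classes were close. A coding TSS was held by 76.8% of domains and 78.4% of comparison regions, several by 18.6% and 18.8%, and a canonical TSS by 86.4% and 88.5%. The coding genes that started in domains had a median length of 27.4 kb, against 37.0 kb in the comparison regions, and 57 of 806 lay wholly inside their domain.

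In the 482 domains with 1 coding TSS, the mark lay mostly over the start of the gene body. It reached a median of 1040 bp upstream and 3212 bp downstream of the TSS, and in 431 domains (89.4%) the downstream arm was the longer. The comparison regions with 1 TSS reached 800 bp upstream and 1645 bp downstream, and the downstream arm was the longer in 86.1% of them.

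The widest domain was that of IRS1, the insulin receptor substrate that relays insulin and IGF signals, at chr2:227655856-227666257 (10402 bp). Its highest fold enrichment of HA was 5.85, 9.76 and 5.40 in replicates 1, 2 and 3. A peak of every replicate lay near the left end of the domain, which is the end furthest from the canonical TSS on the minus strand, and further peaks lay on both sides of the TSS. ProMMP2-3xHA H3K4me3 covered the whole domain as 1 region of 10515 bp. The second widest, at chrX:45620985-45631341 (10357 bp), held the TSS of MIR222HG, the host transcript of the microRNAs miR-221 and miR-222. HA peaks were called there in replicate 3 alone, 5 of them with a highest fold enrichment of 5.00, and the merged peak spanned 162 bp.

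The other 8 of the 10 widest domains covered 9313 to 8439 bp. They were the histone genes H4C9, H2BC12 and H2AC12, a stretch inside RUNX1, ZFP36L1, HMGA2, FOSL2, BRD2 with HLA-DMA, the noncoding RNA gene ENSG00000270117, which lies within MALAT1 on the opposite strand, and CCN1 with DDAH1. RUNX1 is a transcription factor of blood and bone, ZFP36L1 an RNA-binding protein that promotes mRNA decay, HMGA2 an architectural chromatin protein and FOSL2 a subunit of AP-1. All 8 had an HA peak in every replicate. The highest fold enrichment at ZFP36L1 was 11.1, 14.9 and 11.8 in replicates 1, 2 and 3. The merged HA region of 10272 bp covered 95.2% of the ZFP36L1 domain, and the peaks of the replicates covered 31.3%, 64.5% and 47.7% of it. At FOSL2 the highest fold enrichment was 5.79, 6.76 and 7.30, and at CCN1, which encodes a matricellular protein and is a YAP target, 4.95, 5.84 and 6.70. The 3 domains just inside the width limit measured 3501, 3503 and 3505 bp (TBC1D5, POLR2A and BAZ1B by canonical TSS), and the 3 regions just outside measured 3497, 3497 and 3495 bp (GAS1, CREBZF and NRIP1).

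**Figure D1:**
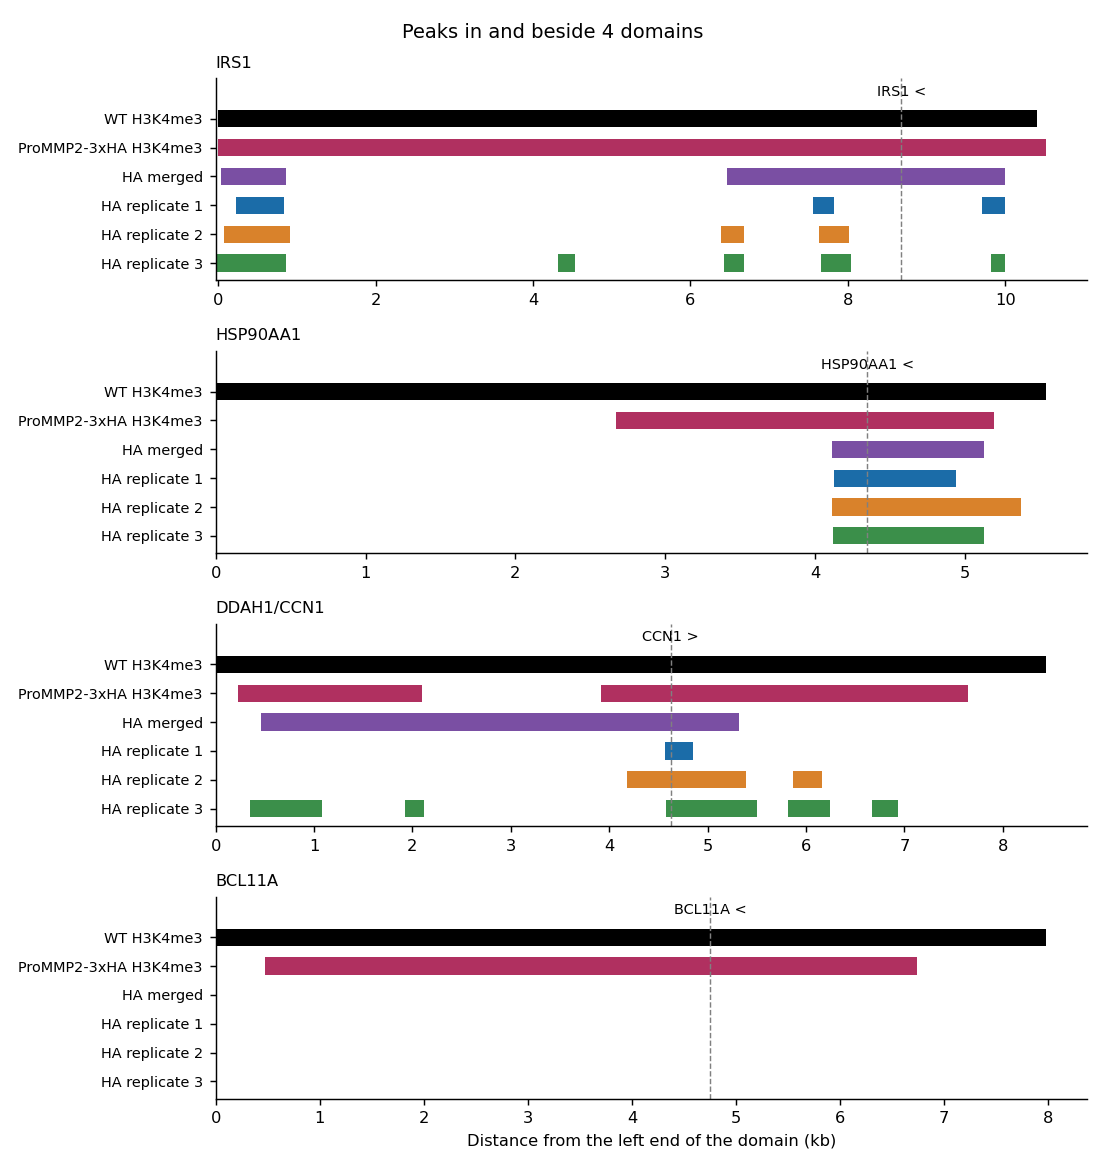
Peak intervals in and beside 4 domains, with distance from the left end of the domain in kb on the x axis and 1 row for each list. Dashed lines mark canonical TSSs with the direction of transcription, and the BCL11A domain of 7977 bp has no bar in any HA row.

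The next question was how often MMP-2 was found in these domains. A merged HA peak overlapped 608 of the 828 domains, 73.4% (95% exact interval 70.3 to 76.4), against 36.6% of all WT regions. The comparison regions stood at 59.1%, regions of 1000 to under 2000 bp at 39.6% and narrower regions at 9.55%. An HA peak was present in 58.9%, 73.6% and 74.5% of domains in replicates 1, 2 and 3, and in 43.8%, 57.6% and 59.8% of comparison regions. The log2 ratio of these shares was 0.37 ± 0.06 (SD, n = 3), higher in domains in 3 of 3 replicates (two-sided exact sign permutation over replicates, p = 0.25). No lower p is possible with 3 replicates, here or in the tests below. The share was not adjusted for the width of the region, and wider regions offer more bases for an overlap.

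Measures set against the number of bases differed less. HA peaks per kb were 0.178, 0.221 and 0.253 in domains and 0.195, 0.25 and 0.281 in comparison regions, a log2 ratio of -0.15 ± 0.03 (SD, n = 3; exact sign permutation p = 0.25). The direction of this ratio depended on counting: with each summit counted in place of each peak it was 0.038 ± 0.12 (SD, n = 3). The share of bases under HA peaks was 7.46%, 18.6% and 14.8% in domains and 7.19%, 17.3% and 12.4% in comparison regions, a log2 ratio of 0.14 ± 0.11 (SD, n = 3; exact sign permutation p = 0.25). Without replicate 3 the ratio was 0.078, and with domains of at least 5000 bp it was 0.28. With ProMMP2-3xHA regions grouped by their own width in place of WT regions, this ratio was 0.01 ± 0.17 (SD, n = 3; exact sign permutation p = 1).

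**Figure D2:**
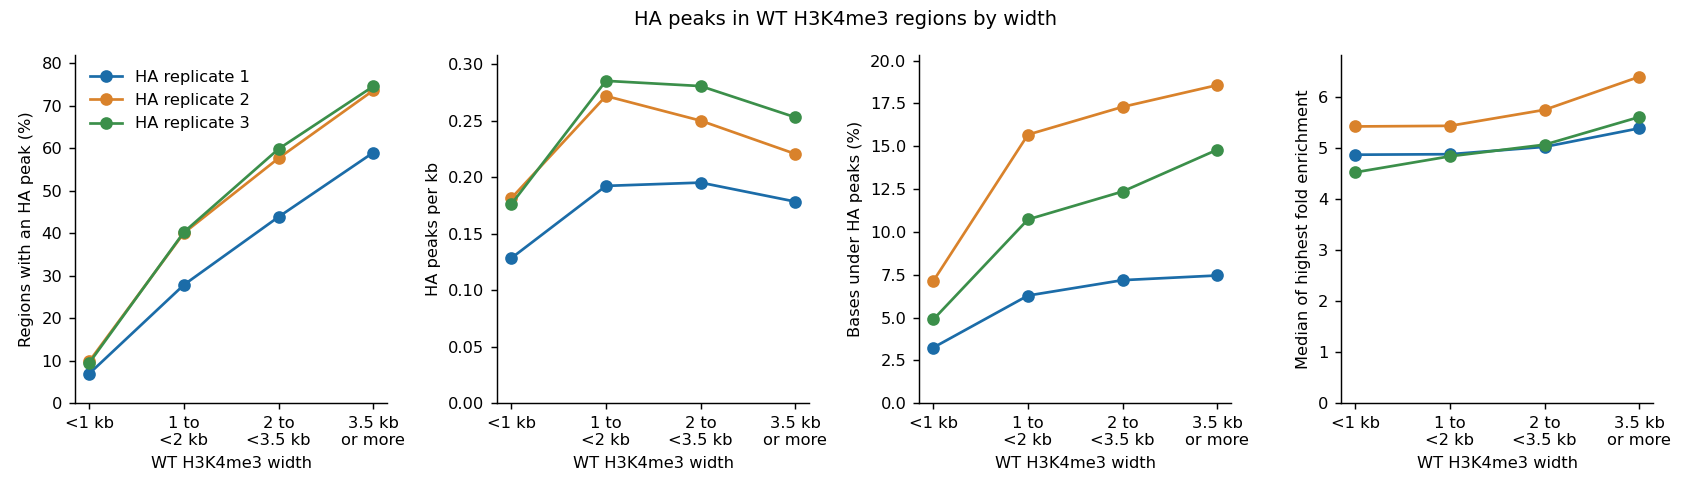
HA in WT H3K4me3 regions of 4 width classes (x axis) as the percentage of regions with a peak, peaks per kb, percentage of bases under peaks and median of the highest fold enrichment, with 1 line for each HA replicate. The share of regions with a peak is highest in the class of 3500 bp or more in each replicate, whereas peaks per kb are highest in a narrower class.

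Where a peak was present, its highest fold enrichment had a median of 5.39, 6.40 and 5.61 in domains and 5.03, 5.75 and 5.07 in comparison regions (log2 ratio 0.13 ± 0.03, SD, n = 3; exact sign permutation p = 0.25), and the ratio was 0.27 with domains of at least 5000 bp. Within the domains, the median was 4.96, 5.75 and 5.12 in the 207 narrowest and 6.04, 7.02 and 6.09 in the 207 widest. The part of width in these values was not tested. Replicate 1 found no peak in 340 domains, 1 peak in 341, 2 in 111 and more in 36. In replicates 2 and 3, 22.2% and 29.5% of domains held at least 2 peaks, against 17.8% in replicate 1. In the merged list only 4 domains held 2 regions, those of IRS1, the H4C9 histone genes, HDGF with PRCC, and BMI1. Neighbouring regions of that list lay at least 4032 bp apart. Next by HA-covered bases came ZFP36L1, LFNG, the noncoding RNA gene NEAT1, PMEPA1, a stretch inside LINC00452, and NDUFAF3 with DALRD3. Merged HA regions of 5763 to 14367 bp covered 84.8% to 100% of these 6 domains. Peaks of single replicates covered less, except for replicate 3 at LINC00452. At NEAT1 they covered 25.7%, 57.3% and 68.9% of the domain in replicates 1, 2 and 3. The widest of the merged regions was at LINC00452, where the replicates were far apart. Their peaks covered 4.4%, 13.9% and 100% of that domain, with a highest fold enrichment of 2.75, 6.10 and 10.1.

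All 3 replicates had a peak in 454 domains (54.8%, 95% exact interval 51.4 to 58.3), against 20.8% of all WT regions and 35.6% of comparison regions. In 124 domains 2 replicates had one, in 104 domains 1 replicate, and in 146 none. Each of the 454 domains also had a merged peak.

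The domains with the highest fold enrichment averaged over the replicates included genes of a chaperone, splicing factors, histones and proteins of translation. HSP90AA1, a cytosolic chaperone, led with 23.4, 39.7 and 14.3 in the 3 replicates, and its mean was 25.8 ± 12.9 (SD, n = 3). The replicates thus differed by a wide margin at this gene, replicate 2 being the highest. SRSF3, a splicing factor, followed with 24.4, 31.5 and 15.4. The domain with MIR21, the gene of the microRNA miR-21 at the end of VMP1, gave 21.0, 23.5 and 19.4, and that of RPL3, a protein of the large ribosomal subunit, gave 17.3, 26.9 and 19.1. These values chose the domains and carry no test. The other 6 of the 10 covered TNFRSF12A with THOC6 and HCFC1R1, the histone genes H2BC21, H2AC20 and H2AC21, RPL10, the translation elongation factor EEF1A1, SRSF2 with MFSD11, and PPP1R10 with MRPS18B. Their means ran from 15.9 to 20.7. Where a gene's 5′ end lies outside the domain, as at HSP90AA1, EEF1A1 and RPL10, it is named here by its canonical TSS.

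No HA list had a peak in 144 domains (17.4%, 95% exact interval 14.9 to 20.2). The 10 widest of these measured 7977 to 6301 bp. They were BCL11A, a stretch inside INHBA, RGMB, the noncoding transcript ENSG00000289069, a stretch inside LRRC4C, NTM, NRP1, ALOXE3, a domain outside genes on chromosome 1, and IGF2BP2. BCL11A encodes a transcriptional repressor, INHBA a subunit of activin, RGMB a BMP co-receptor, NTM and LRRC4C neuronal adhesion proteins and NRP1 a receptor of semaphorins and VEGF. ProMMP2-3xHA H3K4me3 covered 78.6% of the BCL11A domain, 96.1% of the INHBA domain and 99.9% of the NRP1 domain. Domains without HA held a coding TSS in 61.8% of cases and several in 7.64%, against 81.1% and 20.7% of those with a merged HA peak. Their median GC content was 53.7%, against 54.6%. An absent peak means that none passed the q-value of the authors' calls, not that HA was absent.

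Domains with a coding TSS had an HA peak more often than those without, a comparison chosen after seeing the data. The shares were 62.7%, 77.8% and 78.1% with and 46.4%, 59.4% and 62.5% without, a log2 ratio of 0.38 ± 0.06 (SD, n = 3; higher in 3 of 3 replicates, exact sign permutation p = 0.25). A merged HA peak was present in 59.9% of the 192 domains with no coding TSS, 76.1% of the 482 with 1 and 80.7% of the 140 with 2. The 14 domains with 3 or more TSSs had one in 13 cases. The median WT width was 4251, 4230 and 4223 bp in the first 3 of these classes, so these classes were alike in width.

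In domains with 1 coding TSS, HA summits gathered at the TSS. Per 100 domains, the 200 bp just downstream of it held 25.9, 31.7 and 32.2 summits in replicates 1, 2 and 3, the 200 bp just upstream 7.68, 6.64 and 6.85, and the 200 bp before that 12.0, 17.6 and 17.0. The profile thus had a main maximum after the TSS, a dip before it and a smaller maximum further upstream in all 3 replicates. Of the summits within 1000 bp, 58.7%, 60.7% and 61.7% lay downstream. This excess over 50% was 10.4 ± 1.5 percentage points (SD, n = 3; exact sign permutation p = 0.25) and fell to 3.13 ± 0.66 with the canonical TSS. The same share in comparison regions was 59.0%, 58.9% and 59.5%, and the difference between the classes was 1.24 ± 1.30 percentage points (SD, n = 3; exact sign permutation p = 0.5), within the spread of the replicates. Domains had more of their summits far from the TSS: 72.7%, 67.2% and 68.7% lay within 1000 bp, against 93.1%, 91.1% and 92.1% in comparison regions, which extend less far.

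Position within the domain was also measured. The central 50% of a domain held 55.0%, 55.1% and 55.9% of summits, 5.37 ± 0.49 percentage points above 50% (SD, n = 3; exact sign permutation p = 0.25). In domains of at least 5000 bp the excess was 1.73 ± 1.37. In comparison regions the central 50% held 72.8%, 71.2% and 72.3%, so summits were less central in the domains by 16.7 ± 0.9 percentage points (SD, n = 3, lower in 3 of 3 replicates; exact sign permutation p = 0.25). With 1 coding TSS, domains reached a median of 1040 bp upstream and 3212 bp downstream of it, and comparison regions 800 and 1645 bp. The part of the place of the TSS in this difference was not tested.

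**Figure D3:**
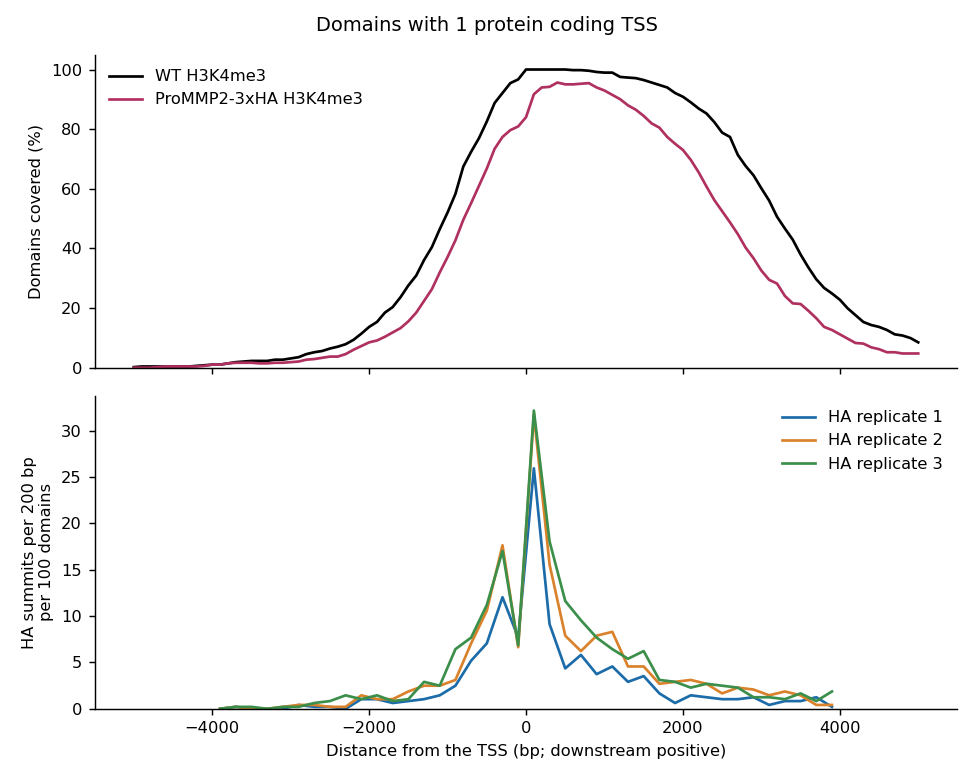
The 482 domains with 1 coding TSS, with distance from the TSS in bp on the x axis. The upper panel gives the percentage of domains covered by H3K4me3 of each line and the lower panel the HA summits per 200 bp per 100 domains in each replicate, which peak just downstream of the TSS while H3K4me3 extends further downstream.

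The domains were then followed into the ProMMP2-3xHA line, whose list held 419 regions of at least 3500 bp. All but 1 of the 828 domains overlapped a ProMMP2-3xHA region, against 99.4% of comparison regions and 82.1% of all WT regions. ProMMP2-3xHA H3K4me3 covered a median of 80.3% of a domain (quartiles 67.0% and 89.9%) and 79.8% of a comparison region. The domains were chosen for being wide in WT cells, so a smaller width in another library follows in part from the choice. For the converse choice, the 419 broad ProMMP2-3xHA regions had a median width of 4137 bp, the widest WT region over each had a median of 4729 bp, and 335 of them (79.9%) were wider in WT cells. WT regions were thus the wider ones under both choices. Over the whole lists the median width was 895 bp in ProMMP2-3xHA and 1482 bp in WT cells.

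Where the TSS lay in a ProMMP2-3xHA region, in 405 domains with 1 TSS, the ProMMP2-3xHA mark was shorter by a median of 182 bp upstream and 484 bp downstream. The downstream arm was shorter in 88.4% of them and the upstream arm in 87.7%. Comparison regions of the same kind (2062) were alike in these shares, at 87.0% downstream and 88.6% upstream. Their median shortening was 166 bp upstream and 239 bp downstream. In 83 domains (10.0%) the mark was split into several ProMMP2-3xHA regions, against 1.51% of comparison regions. Neighbouring regions of the ProMMP2-3xHA list lay more than 1000 bp apart, so narrower WT regions had less room for a split. Within the domains, 13 of the 207 narrowest and 37 of the 207 widest were split. The contrast with comparison regions was not adjusted for width, and the part of width in it was not tested. The CCN1 domain was among the split ones, with the gap upstream of the canonical TSS.

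HA lay mainly on the part of a domain that was also under H3K4me3 in the ProMMP2-3xHA line. HA peaks covered 9.08%, 22.3% and 17.9% of the domain bases under ProMMP2-3xHA H3K4me3 in replicates 1, 2 and 3, and 2.20%, 6.58% and 4.72% of the domain bases outside it. The log2 ratio was 1.91 ± 0.15 (SD, n = 3; higher in 3 of 3 replicates, exact sign permutation p = 0.25). The bases outside lie mostly at the edges of domains, away from TSSs, and the part of position in this difference was not tested. In the 2000 bp on either side of the domains, HA peaks covered 0.817%, 2.24% and 1.60% of bases.

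The extremes ran from no called ProMMP2-3xHA region to a wider one, and a missing call does not mean that the mark was absent. LAMB3, a laminin subunit of epithelial basement membranes, had a WT domain of 4754 bp at chr1:209821630-209826383 and no ProMMP2-3xHA region, and no HA peak in any list. ProMMP2-3xHA H3K4me3 covered 5.85% of the domain of FASTK with TMUB1, 6.30% at HOXB2, 11.4% at DLG4 with ACADVL and 15.7% of a stretch inside BCL6. None of these 5 had a merged HA peak, although 2 had replicate peaks with a fold enrichment of at most 4.73. At the other end, the ProMMP2-3xHA region extended 2875 bp beyond the domain of TUBB, a beta-tubulin gene, and 1277 bp beyond that of SMAD7, an inhibitor of TGF-beta signalling. A merged HA peak of 9885 bp covered the whole TUBB domain, while SMAD7 had no merged peak. Peaks of replicates 1, 2 and 3 covered 15.6%, 67.5% and 41.5% of the TUBB domain. The other 3 of the 5 that extended furthest, by 1274 to 887 bp, were TNFRSF11B, HMGB2 and MLLT11.

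**Figure D4:**
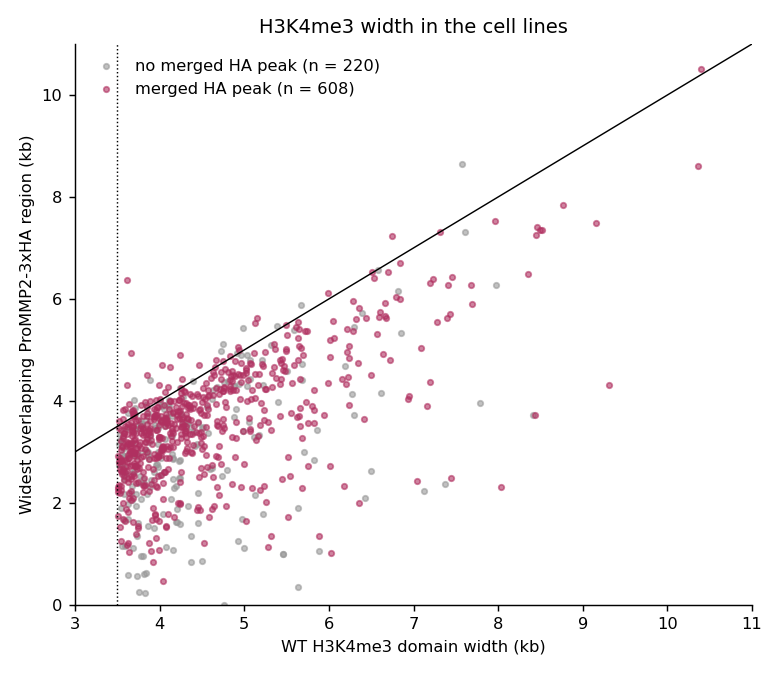
Width of each of the 828 domains in WT cells (x axis, kb) and of the widest ProMMP2-3xHA region over it (y axis, kb), coloured by merged HA peak, with the line of equal width and the limit of 3500 bp dotted. Most points lie below the line, and the widest domain without a merged HA peak measured 8417 bp, below the 10 widest of 8439 to 10402 bp.

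The genes with a TSS in a domain, by 5′ end or canonical transcript, numbered 921 of 20090 protein coding genes (4.58%), or 7.60% of the 12114 genes with WT H3K4me3 at the TSS. Of the 921, 709 (77.0%) had a merged HA peak in the domain. The following lists are described by counts only.

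AP-1 and immediate early genes, which are switched on within minutes of growth or stress signals, were in domains most often, with 22 of 40, or 64.7% of those with WT H3K4me3. A merged HA peak was present at 21 of these 22, the exception being MAFK. At the AP-1 subunit gene JUN the highest fold enrichment of HA was 8.42, 10.7 and 8.15 in replicates 1, 2 and 3, and at JUNB 9.82, 12.1 and 6.78. DUSP1, a phosphatase that switches off MAP kinases, gave 13.6, 18.7 and 11.4. Each of these values was above the domain median of its replicate, which did not hold for every gene of the list. KLF10 had no peak in replicate 1 and gave 4.16 and 3.94 in replicates 2 and 3. MYC had no peak in replicates 1 and 2. ProMMP2-3xHA H3K4me3 covered 86.5% of the JUN domain, 49.5% of JUNB and 55.2% of DUSP1.

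Of the genes of the TGF-beta, BMP, Wnt, Notch and Hippo pathways, 25 of 54 were in domains and 18 of the 25 had a merged HA peak. At the ligand TGFB1 the highest fold enrichment of HA lay between 5.25 and 9.82, and ID1, a target of BMP signalling, gave 9.29, 14.4 and 13.7. CCN2, a target of TGF-beta and YAP, gave 6.78, 12.8 and 10.1. The ligands BMP2 and WNT5A, the mediator SMAD3 and the Wnt effector TCF7L2 had no HA peak in any replicate. ProMMP2-3xHA H3K4me3 covered 20.7% of the BMP2 domain and the whole of the BMP4 domain.

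Osteoblast and mesenchymal genes were in domains in 13 of 50 cases, and 6 of the 13 had a merged HA peak. VIM, the intermediate filament protein of mesenchymal cells, had the highest values with 11.7, 24.5 and 8.99, and SOX9, a transcription factor of cartilage, gave 7.08, 9.76 and 4.40. The transcription factors FOXC1 and MEIS2 and the cadherins CDH2 and CDH11 had no HA peak in any replicate. The CDH11 domain of 3843 bp had 16.0% of its bases under ProMMP2-3xHA H3K4me3. The contrast with the AP-1 list is one of counts over few genes and was not tested.

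Cytosolic ribosomal protein genes were in domains in 15 of 57 cases, and 14 of the 15 had a merged HA peak. In this list HA was also common outside domains, at 30 of the 36 genes with narrower H3K4me3, against 47.9% of all such genes. RPL10, named above for its high values, is not in this list. After RPL3, the largest values of the list in domains were at RPS12, with 10.1, 15.1 and 9.75, and RPS2, with 10.6, 12.7 and 10.2.

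Tumour suppressor genes were in domains in 10 of 50 cases with 8 under merged HA. At EP300, an acetyltransferase, the highest fold enrichment of HA was 8.23, 9.46 and 8.85. Cell cycle and growth genes were in domains in 5 of 36 cases, including CCND1, the cyclin of the G1 phase, with 7.17, 9.34 and 6.92. HOX genes were in domains in 4 of 39 cases (HOXB2, HOXB3, HOXB6 and HOXC4), and HOXC4 alone had a merged HA peak. HOXB3 and HOXB6 shared the same domain. HOXB3 and HOXC4 were counted by the 5′ end of the gene, as their canonical TSSs lay outside the domain. Of the enzymes and readers of H3K4 methylation, 4 of 23 were in domains. These were the methyltransferases SETD1B, KMT2A and KMT2D and the H3K4me3 reader ING1, of which KMT2A had no HA peak.

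**Figure D5:**
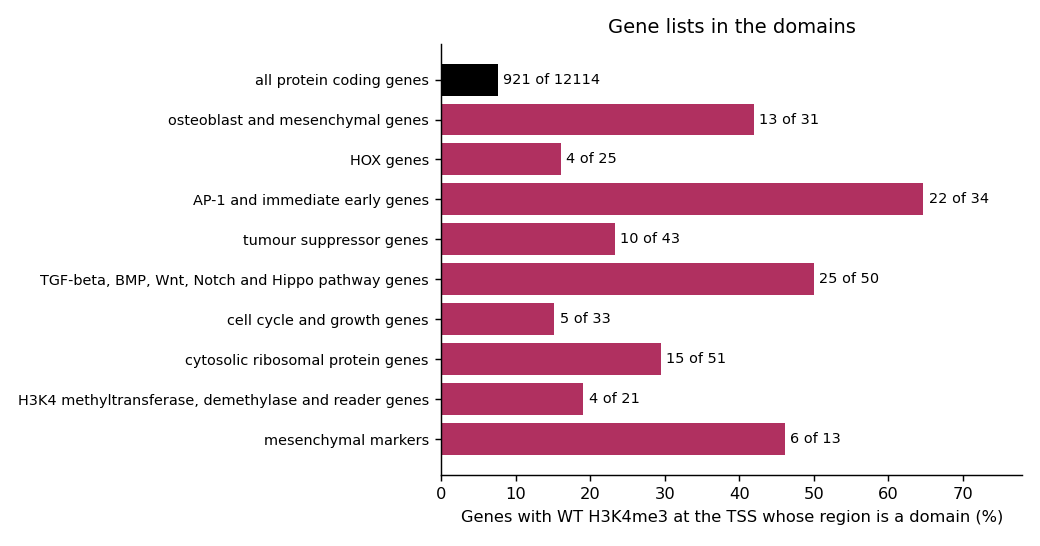
Percentage of the genes with WT H3K4me3 at the TSS whose region is a domain (x axis), for 9 gene lists and all protein coding genes, with the number of genes beside each bar. The bar of AP-1 and immediate early genes is the longest at 64.7%, and that of all protein coding genes stands at 7.60%.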

How the data were processed

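HA and H3K4me3 were measured by nChIP-Seq. Per the labels and the study's methods, the authors trimmed the reads with Trim Galore 0.6.0, aligned them in pairs to hg19 (GRCh37) with Bowtie2 2.3.5.1, filtered them with SAMtools 1.9, removed duplicates with Picard and called peaks with MACS2 3.0.0a6 at a q-value of 0.05. HA replicates were called separately in narrow mode against an HA control. The deposited replicate lists give each summit's score, its fold enrichment as a ratio, and the −log10 of its p-value and q-value. The merged HA list (pooled replicates) and both H3K4me3 lists are intervals in which the authors combined narrow and broad calls.

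Domains were the WT H3K4me3 regions of at least 3500 bp on chromosomes 1 to 22 and X, and WT regions of 2000 to under 3500 bp were the comparison. Overlap meant 1 shared base. Summits that share an interval were taken as a single peak, with the fold enrichment of the highest. Genes came from GENCODE 44 lifted to GRCh37 (20098 protein coding TSSs). Fragments at summits were recovered from the fold enrichment and Poisson p-value, for 95.3%, 98.6% and 97.1% of summits. Values per replicate were tested by an exact two-sided permutation of the sign, with no p below 0.25 possible. The 95% intervals of shares are exact binomial (Clopper-Pearson) and reflect counting error alone. The scripts used Python 3.11.15, numpy 2.4.6, scipy 1.17.1 and pysam 0.24.0, were tested on simulated lists, and the overlap count was checked with bedtools 2.31.1.

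Genes named were those of the 10 widest domains, the 10 with most merged HA peaks, the 10 widest without HA, the 10 with the highest mean fold enrichment, the 5 at each extreme of ProMMP2-3xHA H3K4me3, the 3 on each side of the width limit, and members of the gene lists, of which some are not reported here. Not every sequence window read is shown. The domains and the lists were chosen with earlier results of these data known. Alternatives were a stricter q-value, other widths, other comparison regions, other TSSs and leaving out each replicate.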

Additional observations from a re-analysis of the deposited data

Results flagged for a closer look

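The 2 WT H3K4me3 regions of at least 3500 bp that lay on contigs outside chromosomes 1 to 22 and X were not among the domains, and both had an HA peak in every replicate and in the merged list. On contig GL000205.1 the region measured 4031 bp, and the highest fold enrichment was 4.97, 5.68 and 4.58 in replicates 1, 2 and 3. On contig GL000195.1 the region measured 3505 bp, and the values were 5.61, 7.11 and 6.22. They drew attention because they hold signal in data that no comparison used. Such contigs can share sequence with placed chromosomes, and the part of this in the values was not tested.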

How the results depend on the processing

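Across 11 results, 60 of 65 alternatives kept the direction, or stayed within the counting interval of values without a test. Peaks per kb turned from a log2 ratio of -0.15 to 0.038 when every summit was counted, and the cause was not tested. Merged HA peaks per domain moved from 0.739 to 0.551 when the merged peak had to overlap a peak of every replicate and to 0.802 in domains of at least 5000 bp, and the share of domains with a merged peak moved from 73.4% to 54.8% and 78.3%. No p could reach 0.05, so a retained direction is not a significant one. The comparison of domains with and without a coding TSS and its alternative were chosen after seeing the data, and the canonical TSS gave a log2 ratio of 0.30 in place of 0.38. The ratio of HA-covered bases ranged from 0.078 to 0.18 over the fits that left out 1 replicate, the lowest being without replicate 3. Samples of different groups could not be paired, because the groups share only replicate number 1 and HA in ProMMP2-3xHA cells is the only replicated group. Domains and comparison regions were compared within each HA replicate. The called HA summits in domains had a median of 46 to 54 fragments, and a 5th percentile of 33, 28 and 28 in replicates 1, 2 and 3. Weaker HA may have gone uncalled, and the limit of calling was not measured.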
